A study of Homo sapiens with 6 samples.

Results

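The chaperones and cochaperones of the endoplasmic reticulum (ER) were examined in U2OS cells after silencing of squalene epoxidase. The group holds 10 genes, named in advance by symbol and matched to the Ensembl identifiers of the count table, out of 19937 genes in all. It comprises the lumenal chaperones HSPA5, HSP90B1, HYOU1 and PDIA4, the lectin chaperones CALR and CANX, and the cochaperones DNAJB9, DNAJB11, DNAJC3 and SDF2L1. The genes were put together by function, and were also chosen by the shSQLE against shControl fold changes of these same libraries, which were already in view. Their differences between the groups are therefore given here as a description, without a p-value for any of them, and support nothing by themselves.

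The ER is where secreted and membrane proteins fold. HSPA5 (BiP) is its Hsp70: it holds unfolded chains, J-domain cochaperones deliver clients and stimulate its ATPase, and exchange factors such as HYOU1 release ADP. HSP90B1 (GRP94) is the Hsp90 of the compartment, and calreticulin (CALR) and calnexin (CANX) hold glycoproteins through their sugar. When unfolded protein builds up, the sensors ATF6, IRE1 (ERN1) and PERK (EIF2AK3) start the unfolded protein response, in which ATF6 and XBP1 raise transcription of many of these chaperones through ER stress response elements in their promoters.

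U2OS is a long-established line of human osteosarcoma cells. All 6 libraries came from cells that had received a lentiviral hairpin in the pGIPZ vector, produced in HEK293T cells, and had been selected as stable lines with puromycin. In 3 libraries (shSQLE) the hairpin targeted SQLE, and in the other 3 (shControl) it was a scrambled sequence. The study made 4 hairpins and used 1 of them, so that the shSQLE libraries represent a single hairpin, and the labels do not say whether the replicates were grown separately. The study's methods describe its experiments in general, unless otherwise specified, as using technical replicates. They also state that results came from 3 or more independent experiments, with the data of 1 representative experiment shown. The p-values given for other genes then measure only the spread among these libraries, which may be technical.

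Poly(A) RNA was sequenced and counted per gene, with 12212378 to 14393292 counts per library. No pair of libraries was a copy of another, the closest pair differing by 2.83 times the variance expected from sampling. SQLE itself checked the labels, with 1349, 1867 and 1924 normalized counts in shControl replicates 1, 2 and 3 against 229, 204 and 219 in shSQLE (p = 0.1 in an exact two-sided permutation test, which with 3 against 3 can go no lower). Of the mesenchymal and bone markers, VIM, SPARC, SPP1, RUNX2 and COL1A1 were detected in every library, RUNX2 at 3.38 to 6.57 TPM and COL1A1 at 2.28 to 4.34 TPM. The osteoblast gene SP7 was at 0 TPM in all 6, and the bone genes COL1A2 and ALPL had 0 to 6 raw counts per library. The summed leukocyte markers did not pass 0.884 TPM, and the summed endothelial markers had 0.098 to 0.417 TPM. The summed epithelial markers had 4.29 to 6.48 TPM, nearly all from EPCAM (46 to 76 raw counts per library). Each shSQLE library was above every control in this sum and in VIM. Each was below every control in SPARC, COL1A1 and the summed leukocyte and endothelial markers. The part of these shifts in the results was not tested. One library stood apart: shControl replicate 1 differed from shControl replicates 2 and 3 by 53.9 and 63.6 times the sampling variance. From shSQLE replicates 1, 2 and 3 it differed by 32.0, 26.4 and 53.8 times, and the cause was not tested. For some genes values are given with and without this library, and other values may also rest on it. Normalized counts are counts brought to the mean effective library size by TMM, and TPM values are counts per transcript length, scaled to a common total.

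Every one of the 10 genes had a lower mean in shSQLE. Their log2 fold changes ran from -1.74 for DNAJB9 to -0.51 for CALR, with a median of -1.18, beside a median of -0.01 over the 12450 genes tested. In all 10 genes the highest shSQLE library was below the lowest shControl library, a pattern that 12.1% of all genes tested showed in this direction, 10.0% in the other and 22.1% in either. In the edgeR quasi-likelihood fit 7 of the 10 were called lower (adjusted p under 0.05, Benjamini-Hochberg over all genes tested) and 0 higher, where 2.84% of all genes tested were called lower, 0.369% higher and 3.21% in either direction. The 3 not called were CALR, CANX and SDF2L1, and nothing is read from these counts, since the contrast had served to propose the group. All 10 passed the filter on low counts.

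**Figure D1:**
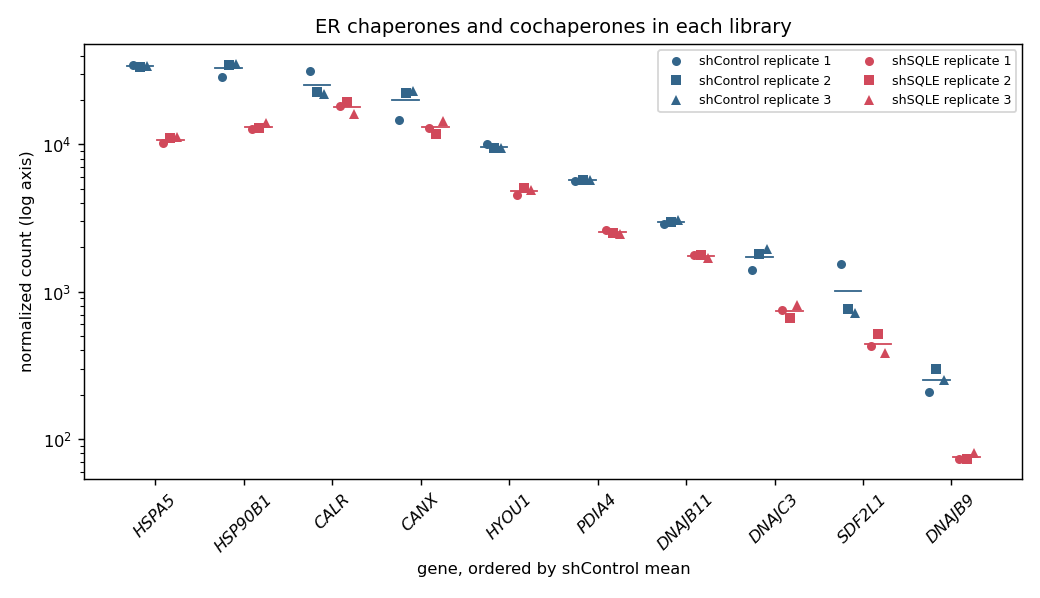
Normalized counts (log axis) of the 10 ER chaperone and cochaperone genes in each library, with shControl in blue, shSQLE in red, symbols for replicates 1 to 3 and short lines for the group means. In each gene the 3 red points lie below the 3 blue ones, but shControl replicate 1 (blue circle) leaves the other controls upward in CALR and SDF2L1 and downward in CANX.

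HSPA5 (ENSG00000044574, minus strand of hg38 chr9:125234853-125241382, 8 exons) held 34639, 33652 and 33954 normalized counts in shControl replicates 1, 2 and 3. In shSQLE replicates 1, 2 and 3 it held 10217, 11020 and 11163. The groups were far apart and the controls nearly equal, with a coefficient of variation of 1.48%. The shSQLE mean was 31.7% of the shControl mean, a log2 fold change of -1.66 (standard error 0.10, n = 3 each). In bulk RNA, fewer cells expressing a gene and less of its RNA per cell cannot be told apart.

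HYOU1 (ENSG00000149428, chr11:119044188-119057227, minus strand, 26 exons), the large Hsp70-related protein that acts as exchange factor for BiP, held 10113, 9414 and 9438 normalized counts in shControl and 4552, 5041 and 4901 in shSQLE. The lowest control library was still well above the highest shSQLE library. The log2 fold change was -0.999 (standard error 0.10), nearer 0 than that of HSPA5. Per transcript length, BiP was 4.14 ± 0.11 times HYOU1 in shControl and 2.62 ± 0.055 times in shSQLE (SD of TPM ratios, n = 3 each), and the 2 sets of ratios did not overlap.

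Among the J-domain cochaperones, DNAJB9 (ERdj4, chr7:108569867-108574850, 3 exons), which represses IRE1 and assists the disposal of misfolded proteins, was the least abundant gene of the group and had the lowest log2 fold change. It held 209, 299 and 250 normalized counts in shControl and 73.4, 72.9 and 80.2 in shSQLE, with 74 to 78 raw counts in each shSQLE library. The control values spread widely, yet the lowest of them stood 1.38 above the highest shSQLE value on the log2 scale. Its log2 fold change was -1.74 (standard error 0.18).

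DNAJC3 (p58IPK, chr13:95677139-95794988, 12 exons), a J-domain cochaperone that also inhibits PERK, held 1408, 1801 and 1941 normalized counts in shControl and 753, 662 and 810 in shSQLE (log2 fold change -1.21, standard error 0.15). DNAJB11 (ERdj3, chr3:186567403-186585800, 10 exons), a soluble J protein that binds unfolded chains and passes them to BiP, held 2880, 2967 and 3062 in shControl and 1788, 1766 and 1687 in shSQLE. Its replicates were tight in both groups and its difference small for this group, at -0.77 (standard error 0.09). DNAJB11 lost its call when any 1 shSQLE library was left out, and DNAJC3 lost its call without shSQLE replicate 1.

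SDF2L1 (chr22:21642302-21644299, 3 exons) forms a complex with ERdj3 and keeps BiP clients soluble. It held 1531, 765 and 722 normalized counts in shControl and 431, 514 and 381 in shSQLE. The first control library was about level with the sum of the other 2 controls, and the group SD was 45.3% of the mean. The log2 fold change was -1.18 (standard error 0.29) with all libraries and -0.75 without shControl replicate 1.

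HSP90B1 (ENSG00000166598, chr12:103930107-103953931, plus strand, 18 exons), whose clients include integrins and Toll-like receptors, held 28686, 34750 and 35289 normalized counts in shControl. In shSQLE it held 12743, 12969 and 13871. No library of one group came near the other, and the log2 fold change was -1.32 (standard error 0.12). PDIA4 (ERp72, chr7:149003062-149028662, 10 exons), a disulfide isomerase that works beside BiP and GRP94, held 5635, 5761 and 5699 in shControl and 2622, 2523 and 2470 in shSQLE. Its coefficient of variation was 1.11% in shControl, the smallest of the 10 genes, and its log2 fold change was -1.17 (standard error 0.09).

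The lectin chaperones had the smallest differences and, after SDF2L1, the least even controls. Calreticulin (CALR, ENSG00000179218, chr19:12938578-12944489, 9 exons), the soluble one, held 31615, 22695 and 21998 normalized counts in shControl and 18242, 19269 and 16057 in shSQLE (log2 fold change -0.51, standard error 0.16). Calnexin (CANX, ENSG00000127022, chr5:179678628-179731641, 15 exons), its membrane-bound relative, held 14692, 22352 and 23144 in shControl and 12971, 11833 and 14475 in shSQLE (log2 fold change -0.62, standard error 0.18). In CANX the groups were separated only by a gap of 0.02 on the log2 scale, between shControl replicate 1 and shSQLE replicate 3. Without shControl replicate 1 the log2 fold change was -0.80 for CANX and -0.32 for CALR. The ratio of CALR to CANX, per transcript length, was 5.56, 2.62 and 2.46 in shControl and 3.64, 4.21 and 2.87 in shSQLE, with groups that overlapped.

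Some of these genes share their locus. Exons of HSP90B1 overlap those of UQCC6 on the opposite strand, which held 123 to 219 raw counts per library, and exons of DNAJB11 overlap those of TBCCD1, which held 136 to 254. CANX overlaps CBY3, and exons of DNAJB11 also overlap a protein-coding gene on the same strand (ENSG00000283149). Both of these neighbours had 0 counts in all libraries. Whether the counting used the strand is not given in the sources used here, so reads of overlapping exons could be assigned to either gene or left out. The counts of the neighbours do not show how many were left out. UQCC6 was scarce beside HSP90B1, which had at least 13014 raw counts per library, and TBCCD1 less so beside DNAJB11, which had at least 1641.

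Levels between genes were compared per transcript length. In shControl the most abundant were CALR at 1915 ± 117 TPM, HSP90B1 at 1743 ± 412 and HSPA5 at 1266 ± 157 (SD, n = 3), and neighbouring genes in this order overlapped in their libraries. In shSQLE CALR was at 1292 ± 26.2 TPM, HSP90B1 at 657 ± 78.5, HSPA5 at 381 ± 40.2 and CANX at 370 ± 65.3. There CALR stood clear of HSP90B1, and HSP90B1 of HSPA5, while HSPA5 and CANX overlapped. Below these, HYOU1, PDIA4 and DNAJB11 lay close together in both groups (305, 301 and 265 TPM in shControl, 145, 127 and 147 in shSQLE). In shControl each overlapped its neighbour in that order, and in shSQLE, where DNAJB11 came first, it overlapped HYOU1 and HYOU1 overlapped PDIA4. SDF2L1 (171 ± 50.3 and 73.5 ± 6.45 TPM) overlapped DNAJB11 in shControl but not in shSQLE, and DNAJC3 (45.4 ± 12.8 and 18.4 ± 3.16 TPM) stood apart from its neighbours in both. By its mean level HSPA5 was the 106th most abundant gene of the table in shControl and the 340th in shSQLE. At the other end DNAJB9 had 15.5 ± 4.35 TPM in shControl and 4.34 ± 0.56 in shSQLE.

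Summed over the 10 genes, the share of all counts was 0.932%, 1.03% and 1.06% in shControl replicates 1, 2 and 3. In shSQLE replicates 1, 2 and 3 it was 0.468%, 0.469% and 0.496%. The groups were well separated, at 1.01 ± 0.066% against 0.478 ± 0.016% (SD, n = 3 each). HSPA5 and HSP90B1 made up most of the difference in counts.

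The families to which these chaperones belong also have members in the cytosol, nucleus and mitochondria, and those were compared in the same fit. Of 16 paralogs and heat shock proteins outside the ER, 0 were called in either direction by edgeR or by DESeq2, where edgeR called 2.84% of all genes tested lower and 0.369% higher. At an unadjusted p under 0.05, 1 was higher (HSP90AA1), beside 1832 of all 12450 genes in either direction. A log2 fold change above 0 was found in 14 of the 16, with a median of 0.17, while 51.6% of all genes tested were below 0. In 4 of the 16 the lowest shSQLE library was above the highest control, a pattern that 10.0% of all genes tested showed. Without shControl replicate 1, and also with GC and length offsets, 4 of the 16 were called higher and 0 lower, where 15.6% and 12.1% of all genes tested were called higher in these fits.

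HSP90AA1, the inducible cytosolic Hsp90, held 39554 ± 6114 normalized counts in shControl and 52665 ± 4977 in shSQLE (log2 fold change 0.41, standard error 0.14, adjusted p = 0.216 by edgeR). HSP90AB1, its constitutive partner, held 29699 ± 422 and 32977 ± 298 (log2 fold change 0.15, adjusted p = 0.523), and the mitochondrial TRAP1 had a log2 fold change of 0.22 (adjusted p = 0.571). Among the 4 Hsp90 genes only HSP90B1, that of the ER, had a log2 fold change below 0. HSP90B1 had been chosen with this contrast in view, so nothing is read from that. Per transcript length, HSP90B1 was 1.02 ± 0.11 times HSP90AB1 in shControl and 0.367 ± 0.014 times in shSQLE (SD, n = 3 each).

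Among Hsp70 proteins, the constitutive cytosolic HSPA8 held 58248 ± 862 normalized counts in shControl and 67559 ± 5121 in shSQLE (SD, n = 3 each, log2 fold change 0.21, adjusted p = 0.395 by edgeR). The mitochondrial HSPA9 had a log2 fold change of 0.09 (adjusted p = 0.775). The stress-induced HSPA1A and HSPA1B, whose near-identical sequences make the split of reads between them uncertain, had values of -0.15 and 0.01, that of HSPA1A being 0.01 without shControl replicate 1. DNAJC7, a cytosolic J protein, had a log2 fold change of 0.21 (adjusted p = 0.452). Of the paralogs named, HSP90AA1, TRAP1 and DNAJC7 were called higher without shControl replicate 1. The ratio of HSPA5 to HSPA8 per transcript length was 0.339, 0.339 and 0.335 in shControl and 0.095, 0.094 and 0.089 in shSQLE. It varied little within a group and the groups were far apart.

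**Figure D2:**
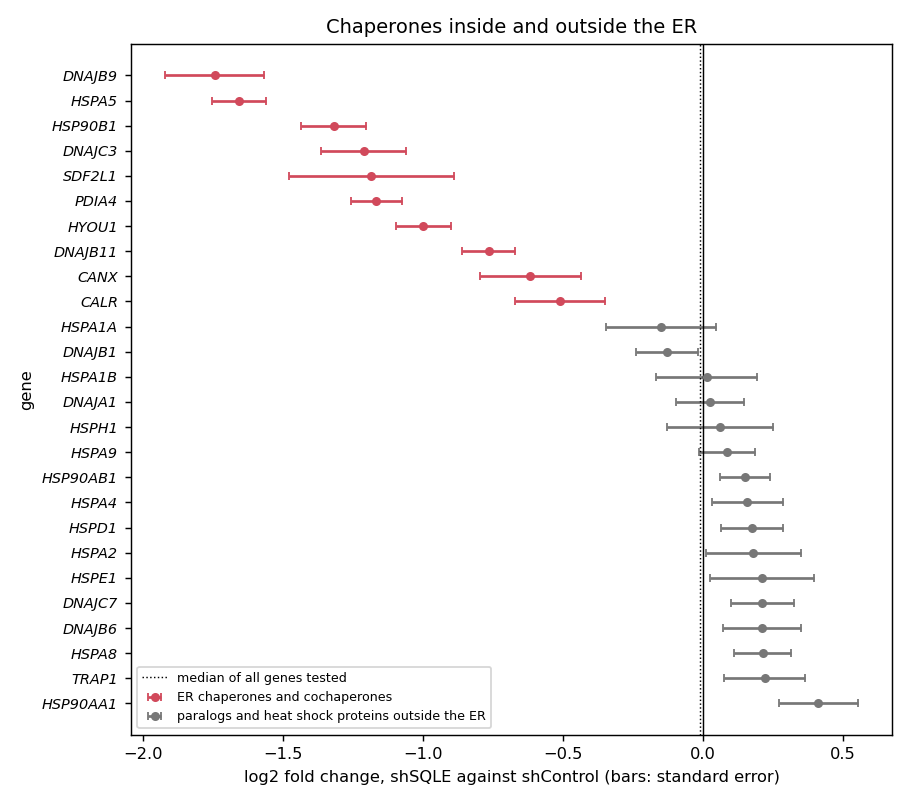
Log2 fold changes of shSQLE against shControl with standard errors (n = 3 each) for the 10 ER chaperones and cochaperones (red) and 16 paralogs and heat shock proteins outside the ER (grey), with the median of all genes tested as a dotted line. The red points run from -1.74 to -0.51, and the grey ones from -0.15 to 0.41.

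Promoters were examined because the genes moved together, a choice made after the values were seen. The ER stress response element ERSE was searched as CCAAT and CCACG with 9 free bases between them, and the second element ERSE-II as ATTGG and CCACG with 1 free base between them, each on both strands and without mismatches, in RefSeq windows (GRCh38.p14) from 250 bases before to 50 bases after annotated starts. All 10 genes had a window. An exact ERSE stood in 4 of them (HSPA5, HSP90B1, CALR and CANX) and an exact ERSE-II in 2 others (HYOU1 and SDF2L1). Over the 10124 tested genes with a window, 0.158% held an exact ERSE and 0.138% an exact ERSE-II, while the shorter CCAAT, which every ERSE contains, stood in all 10 chaperone genes and in 43.5% of tested genes. No exact match of either element lay in the windows of PDIA4, DNAJB9, DNAJB11 and DNAJC3. A further motif of the unfolded protein response, TGACGTG, was searched in the same way. It stood in 1 of the 10 genes (HYOU1) and in 3.36% of tested genes.

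The stretch before the GENCODE start of HSPA5 (chr9:125241383-125241593) and that of HYOU1 (chr11:119057228-119057455) are shown because they carry one element of each kind, both read along the gene, which lies on the minus strand. Capitals mark the fixed letters of an ERSE in the first and of 2 ERSE-II copies in the second, which are written in reverse complement.
HSPA5: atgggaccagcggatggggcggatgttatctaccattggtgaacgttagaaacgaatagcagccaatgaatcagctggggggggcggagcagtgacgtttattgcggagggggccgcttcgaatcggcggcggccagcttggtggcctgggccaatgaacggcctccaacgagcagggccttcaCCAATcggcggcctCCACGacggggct
HYOU1: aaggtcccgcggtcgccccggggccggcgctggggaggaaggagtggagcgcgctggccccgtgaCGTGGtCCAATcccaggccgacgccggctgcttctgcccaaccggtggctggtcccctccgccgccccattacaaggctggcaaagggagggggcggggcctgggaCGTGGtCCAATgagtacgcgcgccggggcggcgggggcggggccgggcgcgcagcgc

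All distances are from the RefSeq start, which lies inside the span of the GENCODE gene in HSPA5, HYOU1, HSP90B1, CALR and CANX and coincides with the GENCODE start in SDF2L1, so that they do not count from the end of the stretches above. The ERSE of HSPA5 began 66 bases before the RefSeq start, and the ERSE-II copies of HYOU1 began 185 and 79 bases before it. The sites of the other 4 genes are given alone, along the gene, with the fixed letters in capitals, to show how their spacers differ. Those of HSP90B1 began 194 and 89 bases before the start (chr12:103930216-103930234 and chr12:103930321-103930339, the second in reverse complement). That of CALR, in reverse complement, began 225 bases before it (chr19:12938384-12938402), that of CANX 151 bases (chr5:179698778-179698796), and the ERSE-II of SDF2L1 188 bases, in reverse complement (chr22:21642114-21642124). Counted from other annotated starts of CANX, the same site began at -189 and at -9.
HSP90B1 distal: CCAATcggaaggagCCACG
HSP90B1 proximal: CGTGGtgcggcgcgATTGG
CALR: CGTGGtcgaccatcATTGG
CANX: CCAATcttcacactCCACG
SDF2L1: CGTGGaCCAAT

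Within the group, the 6 genes with an exact element had log2 fold changes from -1.66 to -0.51, and the 4 without one from -1.74 to -0.77, from which nothing is read. Outside the group, 24 tested genes held an exact ERSE or ERSE-II. Of these, 5 were called lower and 0 higher by edgeR, and 15 had a log2 fold change below 0, with a median of -0.18. Among 10094 tested genes with neither element the median was -0.00 and 259 were called lower. Those 10094 include the 4 members without an exact element, all of them called lower. The 5, named after their values were seen, were ERO1B and PDIA6 of oxidative folding, CRELD2, the degradation factor HERPUD1 and SERP1, a protein of the translocon. The adjusted p of SERP1 was 0.0478, and its call held only without shControl replicate 1 among the 6 fits that leave out a library. A match of letters is no sign that a factor was bound.

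Other genes of ER folding were taken from 8 lists, which together held 91 genes outside the group. Of the 88 that were tested, 13 were called lower and 0 higher by edgeR, beside 2.84% and 0.369% of all genes tested. At an unadjusted p under 0.05, 32 were lower and 1 higher, beside 1832 of all 12450 genes in either direction. A log2 fold change below 0 was found in 72, with a median of -0.23, beside 51.6% and -0.01 over all genes tested. The lists were written with earlier results of these data known, so nothing is read from these counts. These counts moved with single libraries: 39 were called lower and 8 higher without shControl replicate 1 (18.3% and 15.6% of all genes tested in that fit), and 3 to 8 lower without any other library. NUPR1, PDIA2 and FKBP2 did not pass the filter on low counts, FKBP2 with 2 to 4 raw counts per library.

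Of 13 further genes of the BiP system, 1 was called lower, CRELD2, a secreted BiP-associated factor, with a mean of 1152 ± 343 normalized counts in shControl and 431 ± 43.5 in shSQLE (SD over 3 libraries, log2 fold change -1.42, adjusted p = 0.0126 by edgeR). CRELD2 lost its call without any 1 shSQLE library. MANF, which binds BiP and slows its nucleotide exchange, had a log2 fold change of -0.82 (adjusted p = 0.0721), and the disulfide reductase DNAJC10 (ERdj5) one of -0.79 (adjusted p = 0.125), both called lower by DESeq2 and without shControl replicate 1. SDF2, the paralog of SDF2L1, had a log2 fold change of -0.00, with 315 ± 53.9 and 315 ± 33.4 normalized counts (0.15 without shControl replicate 1), and SIL1, the other exchange factor for BiP, one of -0.31 (adjusted p = 0.607, and -0.05 without shControl replicate 1).

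In the cycle of glycoprotein folding 1 of 10 genes was called lower. That was PDIA3 (ERp57), the isomerase that docks onto calnexin and calreticulin, at 11282 ± 336 normalized counts in shControl and 6562 ± 224 in shSQLE (log2 fold change -0.78, adjusted p = 0.00464 by edgeR), which lost its call without shSQLE replicate 1 or 3. UGGT1, the glucosyltransferase that returns unfolded glycoproteins to the lectins, had a log2 fold change of -0.53 (adjusted p = 0.145), and the lectin MLEC one of -0.32 (adjusted p = 0.279), and both were called lower without shControl replicate 1.

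Of 16 tested disulfide isomerases and oxidoreductases, 4 were called lower and 0 higher. ERO1B, an oxidase that recharges the isomerases, held 149, 239 and 259 normalized counts in shControl and 42.1, 39.4 and 50.4 in shSQLE (log2 fold change -2.30, adjusted p = 0.00302 by edgeR) and kept its call without each library in turn. PDIA3 again, PDIA6 at -0.60 and ERP44 at -0.63 were the others. With a library left out, PDIA6 and ERP44 were called only in the fit without shControl replicate 1.

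By edgeR and by DESeq2, 0 of 8 client-specific chaperones and 0 of 7 tested prolyl isomerases of the ER were called in either direction. At an unadjusted p under 0.05, 0 of the first and 3 of the second were lower. SERPINH1 (HSP47), the collagen chaperone, had a log2 fold change of -0.19 (adjusted p = 0.700), TAPBP one of -0.36 (adjusted p = 0.451) and TOR1A one of -0.15 (adjusted p = 0.591). Without shControl replicate 1 these were -0.01, -0.10 and -0.13. The prolyl isomerases PPIB, FKBP11 and FKBP14 had values of -0.58, -0.51 and -0.61. Without shControl replicate 1 these were -0.25, -0.30 and -0.80, and FKBP11 and FKBP14 were called lower.

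KDEL receptors return many ER chaperones from the Golgi. KDELR3 was called lower at -0.58 (335 ± 7.68 against 224 ± 12.0 normalized counts, SD over 3 libraries, adjusted p = 0.0450 by edgeR), and with a library left out its call held only in the fit without shControl replicate 1. KDELR1 and KDELR2 had log2 fold changes of -0.11 and -0.08 (adjusted p = 0.859 and 0.770), that of KDELR1 being 0.10 without shControl replicate 1.

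Of 16 genes of ER-associated degradation, 3 were called lower and 15 had a log2 fold change below 0, with a median of -0.54. HERPUD1, a scaffold of the ubiquitin ligase complex, held 1630, 1402 and 1469 normalized counts in shControl and 641, 659 and 645 in shSQLE (log2 fold change -1.21, adjusted p = 0.00162 by edgeR) and kept its call without each library. SEL1L at -1.12 and SELENOS at -0.63 kept theirs, with a library left out, only without shControl replicate 1.

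Of 16 tested sensors and factors of the unfolded protein response, 4 were called lower and 0 higher. These were the transcription factor ATF3, with 214, 171 and 199 normalized counts in shControl and 71.5, 67.0 and 46.3 in shSQLE (log2 fold change -1.65, adjusted p = 0.00504 by edgeR), DDIT3 (CHOP) at -1.54, CREB3L2 at -0.74 and the scarce BHLHA15 at -2.30, with 3.08 to 8.81 normalized counts in shSQLE. ATF3 kept its call without each library. DDIT3 lost its call without shSQLE replicate 1 or 3, BHLHA15 in 4 of the 6 fits (without any shSQLE library or shControl replicate 2) and CREB3L2 in 5 (all but that without shControl replicate 1). The sensors ERN1, ATF6 and EIF2AK3 had log2 fold changes of -0.19, -0.20 and -0.67, none past the threshold (adjusted p = 0.614, 0.575 and 0.0630), and XBP1 one of -0.21 (adjusted p = 0.405). ATF4, the factor downstream of PERK, had a log2 fold change of 0.41 (adjusted p = 0.300). Without shControl replicate 1, ATF6 and EIF2AK3 were called lower and ATF4 higher, and DESeq2 called EIF2AK3 lower with all libraries.

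The 10 genes did not vary together within the groups. Over the 6 libraries the 45 pairwise Pearson correlations of log2 normalized counts had a median of 0.92, which the group difference carries. After removing the group means the median was -0.04, and 24 of the 45 were below 0. CALR and SDF2L1 deviated together (r = 0.99) and so did CANX and DNAJC3 (r = 0.97), whereas CALR and CANX deviated in opposite directions (r = -0.996). These are descriptions over 6 libraries with 2 means removed, and they share the library that stood apart.

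In shControl replicate 1 the deviations were related to the base composition of the transcripts. There SDF2L1, with 65.1% GC, lay 1.04 above the mean of the other 2 controls on the log2 scale, and CALR, with 53.8% GC, lay 0.50 above. CANX (39.9% GC) lay 0.63 below, DNAJC3 (39.9% GC) 0.41 below and DNAJB9 (37.3% GC) 0.39 below, while HSPA5 (46.1% GC) differed by 0.04 and PDIA4 (51.9% GC) by -0.02. HYOU1, with 55.4% GC, more than CALR, lay only 0.10 above. Across the 10 genes, which are not independent replicates, GC content and this deviation had a Pearson correlation of 0.93, beside 0.72 across the 12447 tested genes with a GC value. The part of GC content in the differences between shSQLE and shControl was not tested beyond the fit with GC offsets.

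**Figure D3:**
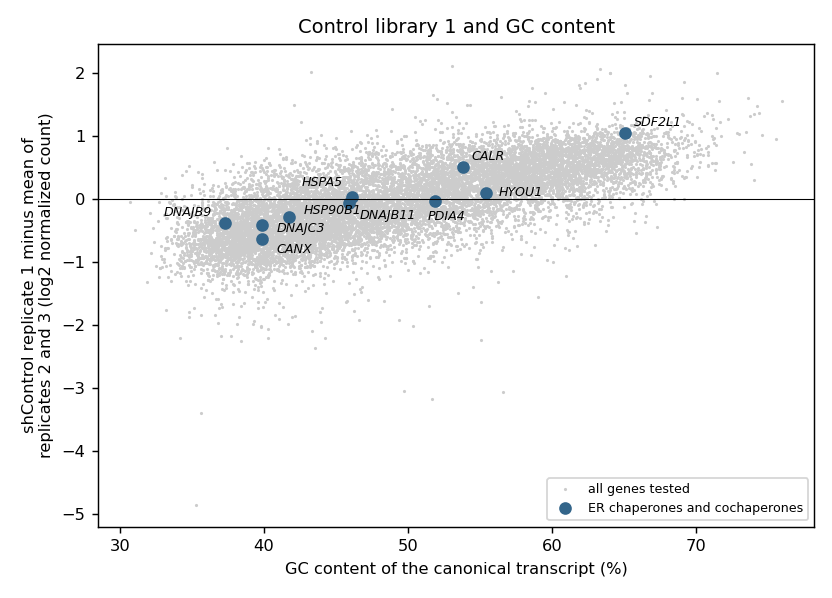
Log2 normalized count of shControl replicate 1 minus the mean of shControl replicates 2 and 3, against the GC content (%) of each gene's canonical transcript, for all genes tested (grey) and the 10 ER chaperones and cochaperones (blue). SDF2L1 and CALR lie above 0 and CANX, DNAJC3 and DNAJB9 below, along the slope of the grey points.

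Without shControl replicate 1 all 10 genes were called lower, but then 18.3% of all genes tested were called lower too. The log2 fold changes of that fit ran from -1.86 for DNAJB9 to -0.32 for CALR, with a median of -1.07. With smooth offsets for GC content and transcript length in each library, all 10 were again called lower beside 8.68% of all genes, from -1.69 to -0.49, with a median of -1.10. Within each of these and all other fits every one of the 10 log2 fold changes stayed below 0. HSPA5, HSP90B1, PDIA4, HYOU1 and DNAJB9 were called in all 14 alternatives, including the stricter threshold of 0.01 on the adjusted p. At that threshold 124 of the 12450 genes tested were called lower. The alternatives reuse the libraries that had served to propose the group, so nothing is read from these calls. HSPA5 ranged only from -1.70 to -1.62.

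**Figure D4:**
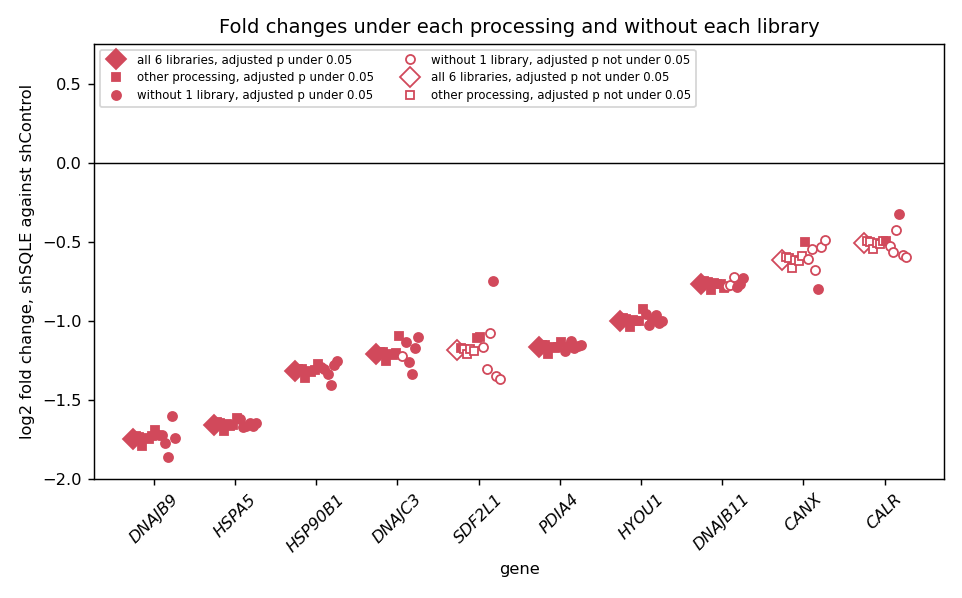
Log2 fold changes of each of the 10 genes with all 6 libraries (diamonds), under other processing (squares) and without 1 library (circles), filled where the adjusted p was under 0.05. The points of HSPA5 lie between -1.70 and -1.62, those of SDF2L1 spread from -1.37 to -0.75, and CALR, CANX and SDF2L1 are mostly open.

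The 5 genes outside the group with the profile over the 6 libraries most like the mean profile of the 10, by Pearson correlation among the 9879 genes whose normalized counts averaged 100 or more, were HERC6, an interferon-induced gene (r = 0.9995), COL5A1, a collagen chain (r = 0.999), the Wnt receptor FZD8 (r = 0.998), the collagenase MMP1 (r = 0.997) and SPTB, a spectrin (r = 0.997). HERC6 held 455, 476 and 470 normalized counts in shControl and 118, 115 and 120 in shSQLE, and MMP1 held 27281, 28230 and 29292 against 11804, 12186 and 12693. In all, 218 genes, members of the group included, had a correlation above 0.95. With 6 libraries in 2 groups such a value mainly says that a gene was lower in shSQLE with little spread. HSPA5 and PDIA4 were the members nearest to the mean profile (r = 0.999 each), and CANX the farthest (r = 0.79).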

How the data were processed

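RNA of 3 shSQLE and 3 shControl libraries was sequenced as read pairs. Trimming by the authors used fastp 0.20.0, alignment to hg38 used STAR 2.7.9a, and featureCounts 2.0 gave the values they deposited, raw counts for each gene. Annotation release, strand setting and treatment of multi-mapping reads are not given in the sources used here. Symbols, positions, lengths and GC content came from GENCODE v44 on hg38 (canonical transcripts).

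Genes passing filterByExpr were tested together with edgeR 4.0.16 (R 4.3.3, quasi-likelihood test, TMM, no covariate, Benjamini-Hochberg, called at 0.05). Standard errors were derived as the absolute log2 fold change over the square root of F. Members, lists and tests were chosen with earlier results of these data known. Named genes were the 10 members, SQLE, the 3 lowest p-values of each list, 7 paralogs and the 5 genes of most similar profile, and any others were named after their values were seen. Alternatives were DESeq2 1.42.0, other size factors and filters, a replicate block, leaving out each library, smooth GC and length offsets (mgcv 1.9.3) and a threshold of 0.01. On counts simulated for this comparison over 12450 genes, 92.4% of 197 changed genes were called and 7.14% of calls were on unchanged genes. That simulation gave all genes the same dispersion, and its changes were larger than those of CALR, CANX and DNAJB11. No simulated library stood apart as shControl replicate 1 did, so these rates need not hold for the deposited counts. Totals were 12212378 to 14393292 counts per library, and same-group libraries differed by 2.83 to 63.6 times the sampling variance.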

Additional observations from a re-analysis of the deposited data

How the results depend on the processing

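The number of members called lower was 7 with all libraries and 5 to 10 without 1 library, with 0 called higher in every alternative. Of all genes tested, 0.801% to 18.3% were called lower in the fits without 1 library. Nothing is read from the members' count, which cannot pass 10 and comes from the contrast that had served to propose them. The members' median log2 fold change, -1.18, was -1.16 with DESeq2, -1.21 with library size only, -1.14 with the replicate block, -1.10 with GC content and length taken out, and -1.18 to -1.07 without 1 library. Genes called lower over all tested, 354, became 556 with DESeq2, 1080 with GC content and length taken out, 124 at a threshold of 0.01 and 101 to 2300 without 1 library, the last without shControl replicate 1. Genes called higher, 46, became 158, 1508, 9 and 4 to 1964 in the same order. For the other ER folding genes, 13 called lower became 21, 36, 4 and 3 to 39, and 0 called higher became 2 with GC content and length taken out and 0 to 8 without 1 library. SQLE kept its call in all 14 alternatives (-3.12 to -2.87 without 1 library). The cause of these shifts was not tested. Without shControl replicate 1, CALR moved from -0.51 to -0.32 and SDF2L1 from -1.18 to -0.75. The member with the fewest counts was DNAJB9, with 74 to 78 raw counts in each shSQLE library.

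Replicate numbers did not pair the libraries: deviations of same-numbered libraries correlated at 0.14, -0.43 and 0.54. With the replicate block 362 genes were called lower, and 8 members, SDF2L1 being added.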
